A study of Mus musculus with 16 samples.

Results

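The Dlk1-Meg3 locus is an imprinted domain of mouse chromosome 12. Its 5 genes with a probe set on the array used here (Dlk1, Meg3, Rian, Mirg and Dio3os) were followed in fibroblasts of the dermis, which build the connective tissue of skin. The genes were taken by symbol from the platform annotation, 5 of 17097 genes in all, and they hold 17 of the 45141 probe sets. They were selected on measured values, namely their levels in the 4 groups of samples and their spread among old cultured arrays, so these are given as descriptions with no test. Expression was measured on 16 arrays, 4 per group. Old cells came from mice aged 18 months and young cells from mice aged 2 months, all female and of the C57Bl/6 strain, and no transgene or mutation is named for any group. From each mouse 5000 cells were profiled right after isolation (called in vivo, the term of the labels) and 5000 after culture, which gives the groups old in vivo, young in vivo, old cultured and young cultured. How long, in what medium and over how many passages the cells were cultured is not stated in the sources used. The labels do not tell which in vivo and which cultured sample share a mouse, so replicate numbers only name arrays.

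Imprinted genes are expressed from 1 parental copy. At this locus the protein-coding gene Dlk1 is expressed from the paternal chromosome, and the noncoding RNAs Meg3, Rian and Mirg from the maternal one, under a shared control region that is methylated on the paternal copy. DLK1 is a membrane protein related to the Notch ligands, present in embryonic mesenchyme and preadipocytes, and known to hold back fat cell differentiation. Meg3 is a long noncoding RNA that is abundant in stromal cells, Rian carries C/D box small nucleolar RNAs and some microRNAs, and Mirg is the host of a microRNA cluster. Dio3os is transcribed antisense to Dio3, the gene of the thyroid hormone-inactivating deiodinase at the distal end of the domain.

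In the GRCm38.p6 assembly (RefSeq) all 5 genes lie on chromosome 12. Dlk1 spans positions 109452485 to 109463336, Meg3 109540996 to 109571729, Rian 109603945 to 109661716, Mirg 109734981 to 109749458 and Dio3os 110275384 to 110278068. Within the locus the RefSeq table places 57 microRNA hairpins, of which 1 lies inside Meg3, 3 inside Rian and 10 inside Mirg. The microRNAs themselves were not measured by these arrays. Mature sequences from the 3 host genes are printed to show what these RNAs carry, with the seed (bases 2 to 8) in capitals; the last 2 were chosen because they have the same seed.
mmu-miR-770-3p (inside Meg3): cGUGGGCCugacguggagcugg
mmu-miR-370-3p (inside Rian): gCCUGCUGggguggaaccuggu
mmu-miR-410-3p (inside Mirg): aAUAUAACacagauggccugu
mmu-miR-369-3p (inside Mirg): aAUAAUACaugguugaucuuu
mmu-miR-453 (inside Mirg): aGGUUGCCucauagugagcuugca
mmu-miR-496a-5p (inside Mirg): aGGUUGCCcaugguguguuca

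The window around the start of Meg3 is printed because Meg3 is the first of the maternal RNAs, whose levels are described next. It covers chr12:109540746-109541045 on the plus strand of GRCm38.p6 (RefSeq), from 250 bases before to 50 after an annotated start.
Meg3: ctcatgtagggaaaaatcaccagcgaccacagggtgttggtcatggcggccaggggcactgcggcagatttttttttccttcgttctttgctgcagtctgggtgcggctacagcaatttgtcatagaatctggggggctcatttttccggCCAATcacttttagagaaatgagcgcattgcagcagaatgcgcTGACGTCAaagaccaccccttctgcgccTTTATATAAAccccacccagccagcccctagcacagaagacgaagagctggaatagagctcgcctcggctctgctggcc
Capitals mark the matches of a search on both strands, which were CCAAT, the cAMP response element TGACGTCA and the TATA box TATAAA with an overlapping match on the other strand. GGGCGG and CACGTG were searched for as well and have no match in this window. Of 32851 windows of the same length around RefSeq gene starts, 37.4% hold CCAAT, 1.79% TGACGTCA, 13.6% TATAAA, 35.7% GGGCGG and 7.15% CACGTG. The Meg3 window has 13 CpG dinucleotides, against a median of 7 over all windows. RefSeq holds a second Meg3 start, with a window at positions 109545148 to 109545447 that has 1 CpG and no match to any of the 5 motifs and is not printed. These matches are letters in a window, and binding was not measured.

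All values are the log2 intensities (RMA) the authors deposited, and a gene with several probe sets is represented by the one with the highest mean over the 16 arrays. Array medians lay between 4.74 and 4.92, and arrays correlated at 0.977 to 0.992 in vivo, 0.987 to 0.996 in culture and 0.879 to 0.913 between the conditions. The fibroblast markers (Col1a1, Col3a1, Dcn and others, 11 in the list and 10 tested) had list means of 10.52 to 10.69 in old in vivo, 10.63 to 10.70 in young in vivo, 9.34 to 9.53 in old cultured and 9.30 to 9.60 in young cultured arrays. Lists of macrophage, endothelial, muscle, adipocyte, pericyte and glial or melanocyte markers had means of at most 6.02 in every array, and the keratinocyte list likewise except for 6.83 in old in vivo replicate 1. Single markers in these lists were brighter in vivo. Means were 8.10 in old and 8.09 in young cells for Cd68 of macrophages, and 8.23 and 7.17 for Kcnj8 of pericytes. Of endothelium, Kdr averaged 7.34 and 6.57 and Tek 6.98 and 6.32. In culture Myh11 averaged 8.41 in old and 9.25 in young cells. Csf1r of the macrophage list averaged 6.46 in old and 7.53 in young in vivo cells. Other markers of these lists had low means in vivo: C1qb, Cd14 and Lyz2 averaged 4.20 to 5.25, and Rgs5, Notch3 and Myh11 4.46 to 4.92. Pecam1, Cdh5, Emcn, Tie1 and Vwf, of the 7 endothelial markers tested, averaged 3.82 to 4.73. In old in vivo cells keratinocyte marker means ran from 3.99 (Krt1) to 7.25 (Krt10), with Krt5 reaching 9.68. These are bulk samples, so fewer cells that express a gene and less RNA per cell cannot be told apart. All 5 genes passed the filter on low values, which asked for 4 arrays above 3.87.

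Among in vivo cells Meg3 was lower in the old group. Its main probe set read 9.61, 9.64, 9.90 and 9.50 in old in vivo arrays, against 11.28, 11.21, 11.28 and 11.13 in young in vivo arrays. Every old array lay below every young one. The means were 9.66 ± 0.17 and 11.23 ± 0.07 (SD, n = 4 each), a log2 difference of -1.56 ± 0.30 (SE of the fit), or 2.95-fold lower in old cells. The other Meg3 probe sets showed the same direction, and over all 10 the difference of means ran from -2.48 to -1.29, with no overlap between the ages in any of them.

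Rian, the next RNA downstream, differed more on the log2 scale. It read 8.06, 7.69, 7.79 and 7.63 in old in vivo arrays, against 10.34, 10.14, 10.44 and 10.44 in young in vivo arrays. The groups again did not overlap, and the log2 difference of -2.55 ± 0.34 corresponds to 5.84-fold lower in old cells. Over its 4 probe sets the difference ran from -3.53 to -2.55. The largest was that of 1427580_PM_a_at, with 5.26, 5.58, 6.46 and 6.33 in old in vivo arrays, against 9.80, 9.08, 9.51 and 9.35 in young in vivo arrays.

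Mirg has 1 probe set. It read 4.59, 5.18, 5.11 and 5.84 in old in vivo arrays, against 8.04, 7.42, 7.87 and 7.89 in young in vivo arrays. The difference was -2.62 ± 0.44, or 6.17-fold lower in old cells, with no overlap. The old in vivo arrays varied more for Mirg (SD 0.51) than for 97.0% of the 14819 tested genes in that group, and the lowest array lay close to the level of control probe sets.

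**Figure D1:**
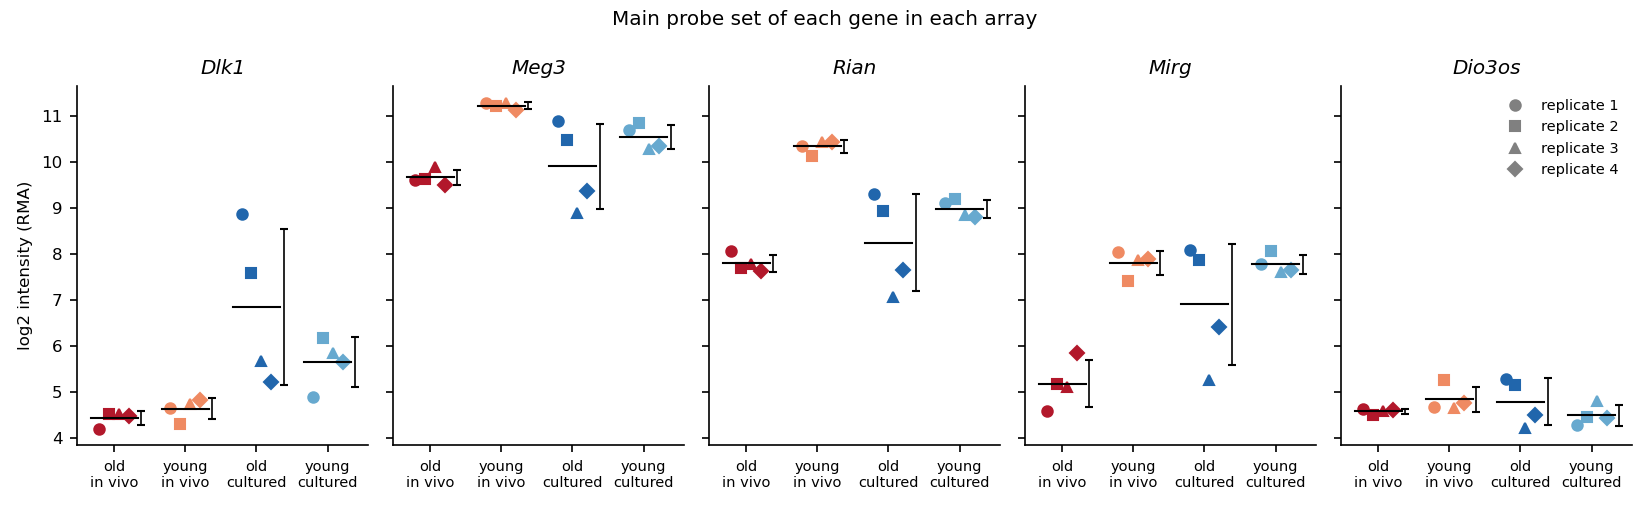
Log2 intensity of the main probe set of each gene in each of the 16 arrays, with groups on the horizontal axis in the order old in vivo, young in vivo, old cultured, young cultured. Points are single arrays with the replicate number by shape, horizontal lines are group means and error bars are 1 SD (n = 4). Old in vivo arrays of Meg3, Rian and Mirg all lie below the young in vivo arrays, and the old cultured arrays spread most, over 3.64 log2 units for Dlk1.

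Dlk1 and Dio3os were dim in vivo. Dlk1 read 4.20, 4.52, 4.52 and 4.48 in old in vivo arrays, against 4.66, 4.31, 4.73 and 4.83 in young in vivo arrays, with overlapping groups and a difference of -0.20 ± 0.55. Dio3os read 4.63, 4.50, 4.59 and 4.60 in old in vivo arrays, against 4.68, 5.25, 4.66 and 4.75 in young in vivo arrays. Its groups did not overlap, by 0.03 between the nearest arrays, and the difference was -0.26 ± 0.20, which was -0.12 without young in vivo replicate 2. How far these values stand above background depends on the control probe sets used as a guide. The 95th percentile of the controls was 4.34 for 12 poly-A control sets (DapX, LysX, PheX and ThrX), 4.27 for 15 sets that also include TrpnX, and 4.75 for the 12 r2-Bs control sets. The first was adopted after all 3 had been computed, to match an earlier processing of these data. Dlk1 exceeded 4.34 in 3 of 4 old and 3 of 4 young in vivo arrays, but 4.75 in 0 old and 1 young. Dio3os exceeded 4.34 in 4 of 4 old and 4 of 4 young in vivo arrays, but 4.75 in 0 old and 1 young.

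Counting probe sets, all 15 of the maternally expressed RNAs (10 of Meg3, 4 of Rian, 1 of Mirg) were lower in old in vivo cells with no overlap, where 2.72% of the 45141 probe sets on the array had that pattern. In the fit across genes 3 of the 5 genes passed an adjusted p of 0.05 in the lower direction (Meg3, Rian and Mirg) and 0 in the higher one, beside 1.59% of tested genes called lower and 4.49% called higher. As the genes were selected with this contrast known, nothing is read from these counts. All-gene splits depend on scaling: 665 genes were called higher and 235 lower as deposited, 420 and 331 after scaling to the 75th percentile, and 494 and 347 after cyclic loess.

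**Figure D2:**
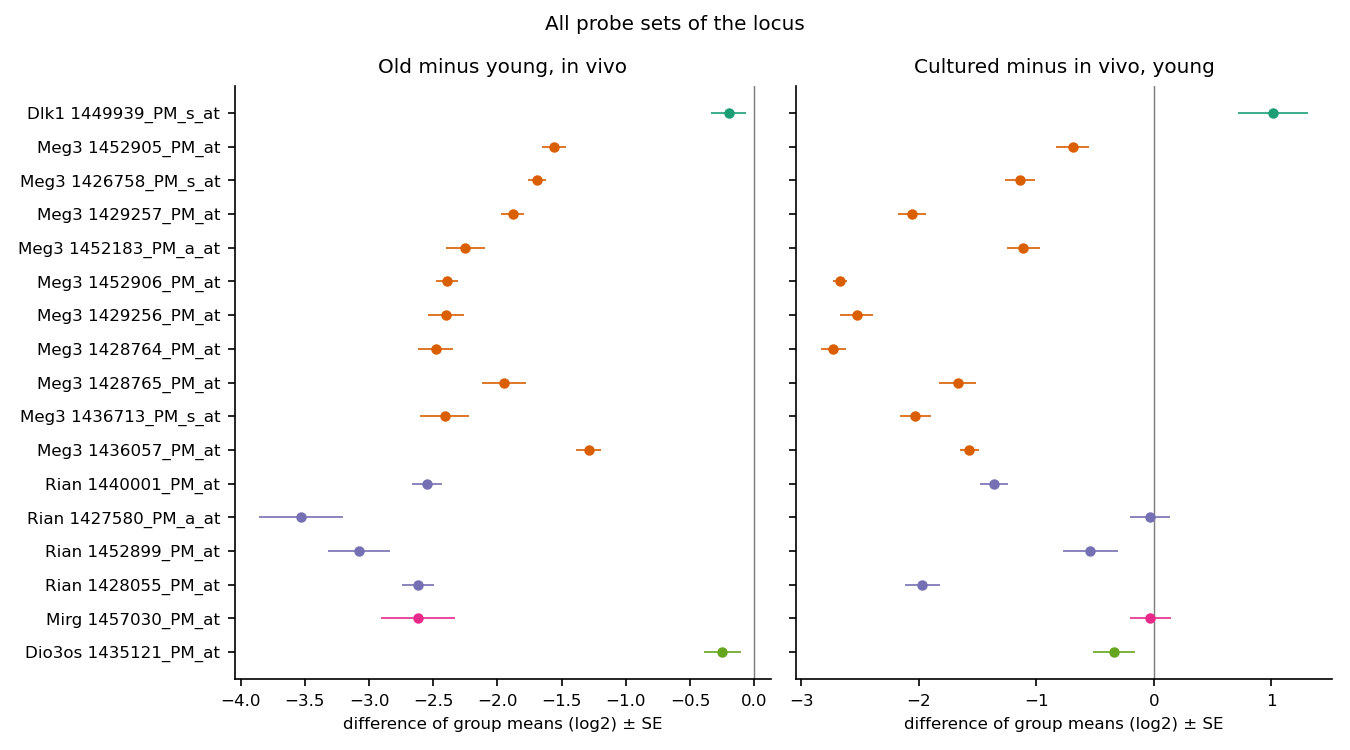
Difference of group means (log2, horizontal axis) for all 17 probe sets of the locus, one per row, for old minus young in vivo on the left and cultured minus in vivo in young cells on the right. Bars are 1 SE from the SDs of the 2 groups (n = 4 each). All 15 probe sets of Meg3, Rian and Mirg lie at -1.29 or below on the left, while on the right Meg3 runs from -2.73 to -0.69 and 1 Rian probe set and Mirg sit near 0.

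The genes on either side of the domain were measured for comparison. Of 21 neighbours listed, 16 had a probe set and all 16 were tested. In the age comparison in vivo 1 of the 16 was called, Slc25a47, a mitochondrial carrier, which was lower in old cells (-0.38 ± 0.10, adjusted p = 0.0354, limma), and 0 were higher; the median was -0.03, beside 0.02 over all genes. The Slc25a47 call was lost in 7 of 23 alternatives, among them the fit of the 8 in vivo arrays alone. Wars, the tryptophanyl-tRNA synthetase gene, which lies on the proximal side of Dlk1, was at 0.38 ± 0.13, and Ppp2r5c, a phosphatase subunit gene on the far side of Dio3os, at 0.06. Whether the domain differs from its neighbours was not tested.

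**Figure D3:**
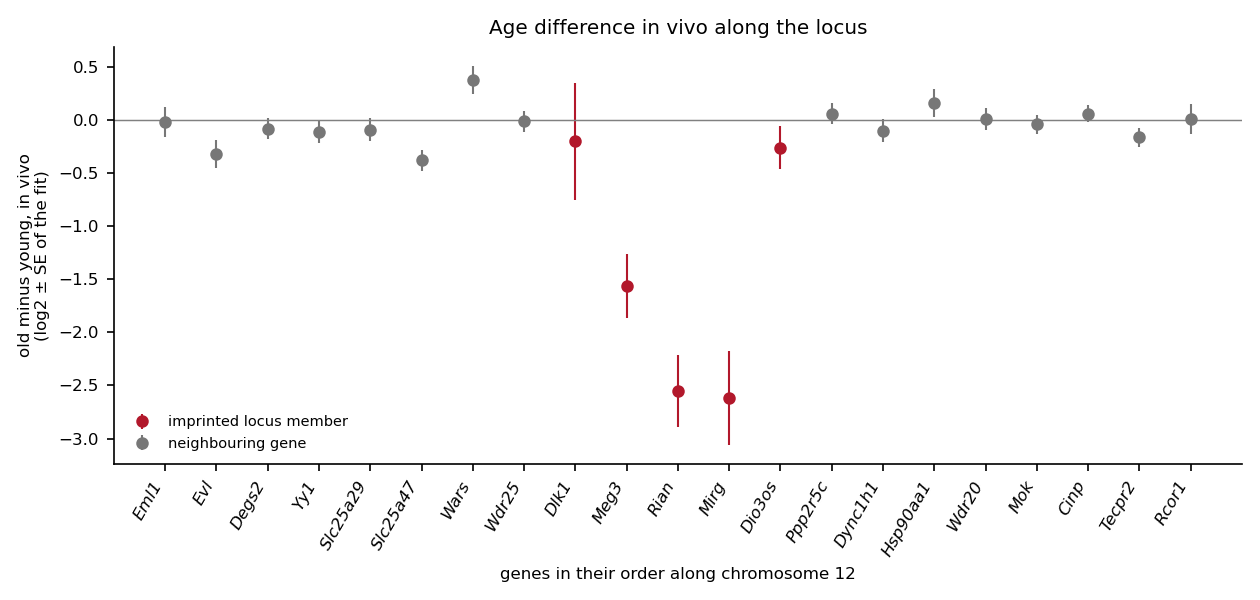
Old minus young difference in vivo (log2, vertical axis) of the 5 locus genes (red) and 16 neighbouring genes (grey), in their order along chromosome 12. Bars are 1 SE of the fit over 16 arrays. Meg3, Rian and Mirg lie at -1.56, -2.55 and -2.62, and the neighbours between -0.38 and 0.38.

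Measures of the samples also moved with age in vivo. The 3' minus 5' difference of Gapdh, a measure of RNA integrity, was -0.17 to -0.13 in old in vivo arrays and -0.12 to -0.04 in young in vivo arrays, and that of Actb was -0.56 to -0.31 in old and -0.49 to -0.32 in young. Csf1r, the receptor of the macrophage growth factor, was lower in old in vivo cells (-1.08 ± 0.16, adjusted p = 0.00109, limma), and it was 1 of 5 tested macrophage markers to pass, while the list means were 5.76 to 5.83 in old and 5.73 to 6.02 in young arrays. Of the 10 tested fibroblast markers only Col1a2 was called, and it was lower (-0.64 ± 0.14, adjusted p = 0.0162, limma). Of the 4 tested pericyte and smooth muscle markers only Kcnj8 was called, and it was higher (1.06 ± 0.19, adjusted p = 0.00497, limma). Rgs5, Notch3 and Myh11 of that list were at -0.24, -0.22 and -0.03. Their part in the differences of Meg3, Rian and Mirg was not tested.

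In young cells Meg3 was lower after culture. It read 10.69, 10.84, 10.29 and 10.34 in young cultured arrays, against the 11.13 to 11.28 of young in vivo cells, a difference of -0.68 ± 0.30 and no overlap. Its 10 probe sets differed in size: the difference ran from -2.73 to -0.69, lower with no overlap in all 10. The dimmer probe set 1428764_PM_at, for instance, read 5.13, 5.39, 5.37 and 5.40 in young cultured arrays, against 8.25, 8.09, 8.02 and 7.85 in young in vivo arrays. The probe sets were not mapped to exons or isoforms here.

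Rian read 9.10, 9.20, 8.84 and 8.80 in young cultured arrays, all below its young in vivo arrays, a difference of -1.36 ± 0.34 or 2.56-fold lower in culture. Only 2 of its 4 probe sets were lower with no overlap, and the differences ran from -1.97 to -0.03. Mirg read 7.79, 8.06, 7.61 and 7.64 in young cultured arrays, which overlapped its young in vivo values (-0.03 ± 0.44). Over the 15 probe sets of these RNAs 12 were lower in young cultured cells with no overlap, where 29.3% of all probe sets had that pattern. In the fit 1 of 5 genes passed in the lower direction (Rian) and 0 in the higher, beside 38.6% of tested genes called lower and 32.6% called higher.

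Some measures of the samples moved with culture as well. The 3' minus 5' difference of Actb was 0.03 to 0.18 in cultured arrays, against -0.56 to -0.31 in in vivo arrays. That of Gapdh overlapped, at -0.17 to -0.01 in cultured arrays and -0.17 to -0.04 in in vivo arrays. The macrophage marker Cd68 fell in culture (-2.58 in old and -2.59 in young cells). The pericyte marker Kcnj8 fell (-4.07 in old and -2.98 in young cells) to means under the 4.34 of the control probe sets. Of 5 tested macrophage markers 4 were called lower in old and 5 in young cells, and Csf1r was at 0.05 in old cells. Of 4 tested pericyte and smooth muscle markers 1 was called lower in old and 2 in young cells, with 1 higher at each age. Over all genes 32.5% were called lower in old and 38.6% in young cells, and 30.2% and 32.6% higher. Rgs5 and Notch3, of the pericyte list, were at 0.02 and 0.07 in old and -0.29 and -0.02 in young cells. Myh11, a smooth muscle myosin gene, rose by 3.96 in old and 4.76 in young cells. The part of these shifts in the values of the locus genes was not tested.

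Dlk1 was brighter in young cultured than in young in vivo cells, with 4.89, 6.18, 5.85 and 5.66 in culture. The lowest cultured array (4.89) lay just above the highest in vivo array (4.83), and the difference was 1.01 ± 0.55. Dlk1 was not called in the fit, where 32.6% of tested genes were called higher. Its young in vivo values lay near the control probe sets, above 4.75 in 1 of 4 arrays. Dio3os read 4.27, 4.46, 4.80 and 4.43 in young cultured arrays, overlapping its in vivo values (-0.34 ± 0.20).

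In old cells the cultured arrays did not form a tight group for any of the 5 genes. Dlk1 read 8.86, 7.59, 5.68 and 5.22 in old cultured arrays, against the 4.20 to 4.52 of old in vivo cells. All 4 cultured arrays were higher, a pattern that 22.2% of all probe sets had, and replicates 1 and 2 were the brightest. The difference was 2.41 ± 0.55 (5.30-fold), and it was 1.73 without old cultured replicate 1 and 2.95 without replicate 4. Since the old in vivo arrays lay at or near the control probe sets, below 4.34 in 1 of 4 and below 4.75 in all 4, this size is at best a lower bound. Its SD of 1.69 was exceeded by 13 of the 14819 tested genes, where the median SD in that group was 0.12.

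Meg3 read 10.88, 10.48, 8.89 and 9.36 in old cultured arrays, so that replicates 1 and 2 lay above all old in vivo arrays and replicates 3 and 4 below them. The mean difference of 0.24 ± 0.30 therefore stands for no single array, and it was -0.09 without replicate 1 and 0.58 without replicate 3. Rian read 9.31, 8.93, 7.07 and 7.65 in old cultured arrays, with replicates 1 and 2 above all old in vivo arrays, replicate 3 below them and replicate 4 within their range (0.45 ± 0.34; 0.09 without replicate 1 and 0.84 without replicate 3). Across probe sets 7 of 10 for Meg3 and 1 of 4 for Rian were lower on average in old cultured cells, and 1 of the 15 maternal probe sets was lower with no overlap, where 26.3% of all probe sets had that pattern. The Rian probe set 1427580_PM_a_at was higher by 2.73 with no overlap, also 1 of the 15, where 22.2% of all probe sets had that pattern, and 1452899_PM_at was higher by 1.85 with overlap. With the mean over probe sets the difference in old cells was 1.19 for Rian and -0.27 for Meg3, so the direction for Meg3 depended on the probe sets used.

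Mirg read 8.08, 7.86, 5.26 and 6.41 in old cultured arrays, against the 4.59 to 5.84 of old in vivo cells, and overlapped them through replicate 3. The difference was 1.72 ± 0.44, or 3.30-fold higher in culture. Dio3os read 5.29, 5.14, 4.22 and 4.49, with a difference of 0.20 ± 0.20, and was 0.04 without replicate 1. In the fit 2 of 5 genes passed in the higher direction (Dlk1 and Mirg) and 0 in the lower, beside 30.2% of tested genes called higher and 32.5% called lower. These SEs and calls use 1 spread per gene for all groups, which is too small for old cultured cells of the locus genes. Scaling to the 75th percentile gave 3683 genes higher and 7382 lower in old cells, against 4478 and 4821 as deposited, and 3780 and 8601 in young cells, against 4834 and 5715.

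The order of the groups thus differed between the genes. By the main probe sets of Meg3 and Rian young in vivo was highest, followed by young cultured, old cultured and old in vivo. There old cultured overlapped both of its neighbours in that order. The lower places depended on the probe set: old cultured averaged below old in vivo in 7 of 10 for Meg3 and 1 of 4 for Rian. In Meg3 probe sets such as 1452906_PM_at young cultured (7.07) also lay below old in vivo (7.35). For Rian 1427580_PM_a_at old cultured and old in vivo did not overlap. For Mirg young in vivo and young cultured had means of 7.80 and 7.78 and overlapped, old cultured came next and overlapped both young cultured and old in vivo, and old in vivo was lowest. For Dlk1 old cultured was highest, followed by young cultured, young in vivo and old in vivo, and the neighbouring groups overlapped except young cultured and young in vivo. Dio3os stayed between 4.22 and 5.29 in all arrays.

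Old and young cultured arrays overlapped for all 5 genes. Dlk1 was 1.19 ± 0.55 higher on average in old cultured cells, with arrays of 5.22 to 8.86, against 4.89 to 6.18 in young cultured cells. It was 0.52 higher without old cultured replicate 1 and 1.73 higher without replicate 4. Meg3 (-0.64 ± 0.30), Rian (-0.74 ± 0.34) and Mirg (-0.87 ± 0.44) were lower on average in old cultured cells, and Dio3os was at 0.30 ± 0.20. Without old cultured replicate 3 the differences of Meg3, Rian and Mirg were -0.30, -0.36 and -0.32, and without replicate 1 they were -0.96, -1.10 and -1.26. In the age comparison in culture 0% of tested genes were called higher and 0% lower (limma), and 0 of the 5 genes. At an unadjusted p under 0.05 there were 276 genes, 509 with the 8 cultured arrays alone, where also 0 were called.

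The change of the age difference with culture was 1.40 ± 0.78 for Dlk1, 0.92 ± 0.43 for Meg3, 1.80 ± 0.48 for Rian, 1.75 ± 0.63 for Mirg and 0.55 ± 0.28 for Dio3os on the log2 scale (old minus young in culture, minus the same in vivo). In that contrast 0 of 5 genes passed, beside 0.196% of tested genes called higher and 0.391% called lower. The fit uses 1 spread per gene for all groups, which is too small for old cultured cells of these genes. For Dlk1, Meg3, Rian and Mirg it is also too large for in vivo cells.

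The spread among old cultured arrays was large for every gene of the locus. The SD was exceeded by 25 genes for Mirg (1.32), 57 for Rian (1.05), 74 for Meg3 (0.93) and 396 for Dio3os (0.51). Such spread was not particular to the locus. Slc38a4, an imprinted gene outside it, had an SD of 2.20 in old cultured arrays (5.14 to 10.28). In young cultured cells the SDs were 0.55 for Dlk1, larger than in 99.2% of genes, and 0.20 to 0.27 for Meg3, Rian and Mirg. In young in vivo cells the SD of Meg3 was 0.07, and 7.63% of genes had a smaller one. Over all probe sets, old cultured arrays 1 and 2 correlated at 0.994 and arrays 3 and 4 at 0.9958, against 0.9874 to 0.9915 for the other pairs; among young cultured arrays the range was 0.9914 to 0.9957. The labels give no day, dish or passage for these arrays, and whether one of them goes with this spread was not tested.

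Pooled over the 16 arrays, Dlk1, Meg3, Rian and Mirg varied together around their group means. This did not hold within every group. In old in vivo replicate 1, Rian was at its highest of that group (8.06), while Mirg (4.59) and Dlk1 (4.20) were at their lowest. After each gene was centred on its group means, Pearson's r over the 16 arrays was 0.96 for Meg3 and Rian (Spearman's rho 0.79), 0.86 for Meg3 and Mirg (0.69) and 0.85 for Rian and Mirg (0.63). The paternally expressed Dlk1 went the same way as the maternal RNAs, at 0.84 with Meg3 (rho 0.58), 0.84 with Rian (0.64) and 0.79 with Mirg (0.73). A further r left out the 2 arrays in which the first-named gene of the pair lay farthest from its group means. It was 0.87, 0.61 and 0.56 for the 3 maternal pairs, and 0.72, 0.74 and 0.80 for Dlk1 with Meg3, Rian and Mirg. With Dio3os r was 0.72 for Dlk1 (rho 0.55), 0.70 for Meg3 (0.41), 0.71 for Rian (0.37) and 0.63 for Mirg (0.31). For the 3 maternal RNAs it was 0.17 to 0.32 without the 2 arrays in which each RNA lay farthest from its group means. These correlations are descriptions of 16 arrays, in which the 4 old cultured arrays have the largest spread. Old cultured arrays also remain in each r that left out 2 arrays.

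**Figure D4:**
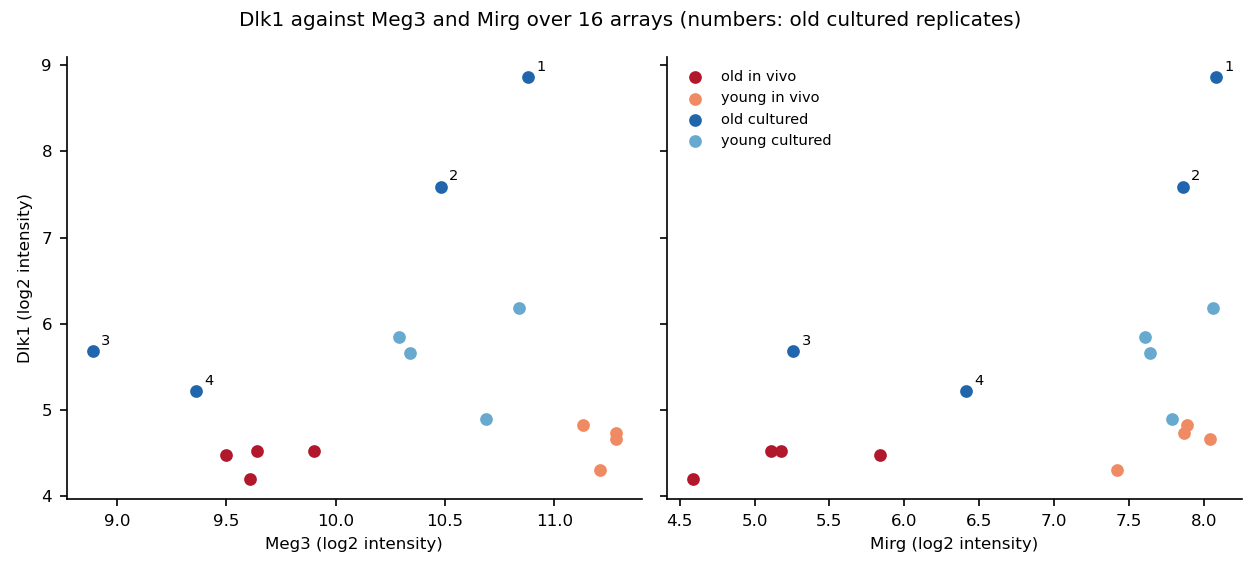
Dlk1 (vertical axis) against Meg3 (left) and Mirg (right), log2 intensity, each point 1 of 16 arrays coloured by group, with the numbers of the old cultured replicates. Old cultured replicates 1 and 2 are high for Dlk1 (8.86 and 7.59) and for both RNAs, and replicates 3 and 4 are low for the RNAs, while young in vivo arrays are high for Meg3 and Mirg at Dlk1 levels of 4.31 to 4.83.

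The genes most like each member were found by a fixed rule over all tested genes. By the root mean square difference of centred profiles, the closest to Dlk1 were Npr3, a natriuretic peptide clearance receptor (0.48), Col2a1, the fibrillar collagen of cartilage (0.52), and Arxes2 (0.65). For Meg3 they were Postn, the matrix protein periostin (0.47), Tm7sf3 (0.51) and Csf1r (0.51), for Rian Cgref1 (0.63), Obox2 (0.75) and Csf1r (0.76), and for Mirg Adam23 (0.68), Mpzl1 (0.74) and Cdr2l (0.84). By the correlation of group-centred values, Dlk1 was closest to Col2a1 (r = 0.95, rho 0.73), the matrix protein gene Efemp1 (0.93, rho 0.83) and Trip6 (0.91, rho 0.75). Meg3 was closest to Adamts5, an aggrecan-cleaving protease (0.94), the cell cycle inhibitor gene Cdkn1b (0.93) and Efemp1 (0.93), and Rian to Adamts5, Efemp1 and Slc9a3r2 (0.94 each). Mirg was closest to Dsn1, a kinetochore gene, and Dut, the dUTPase gene (0.94 each), and to Slc50a1 (0.92).

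Col2a1, Adamts5 and Efemp1 were picked for likeness over the same 16 arrays, so their likeness to the locus in old cultured arrays follows from that choice. The locus itself had no single order in the old cultured arrays. Dlk1 fell from replicate 1 to replicate 4, and the other members were lowest in replicate 3. Col2a1 read 9.99, 7.89, 5.48 and 5.41 there, against 5.08, 5.68, 6.08 and 6.28 in young cultured arrays. Adamts5 read 9.49, 8.66, 6.60 and 7.10 in old cultured arrays, against 7.77, 8.13, 7.09 and 7.11 in young cultured arrays, and Efemp1 read 8.68, 7.93, 6.61 and 6.80, against 7.81, 8.20, 7.89 and 7.57. For both genes replicates 1 and 2 were the highest of the old cultured arrays.

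A list of 16 cartilage genes was added after the Col2a1 values had been seen, so it has no test. Its mean was 4.99, 4.76, 4.69 and 4.67 in old cultured arrays, against 4.54, 4.71, 4.72 and 4.73 in young cultured arrays. Without Col2a1 the mean was 4.65, 4.56, 4.64 and 4.62 in old cultured arrays, against 4.51, 4.64, 4.63 and 4.63 in young cultured arrays. Acan, the cartilage proteoglycan, was between 3.85 and 4.19 in old cultured arrays, below the 4.34 of the control probe sets, and Matn1 and Hapln1 did not pass the filter on low values. Sox9, the transcription factor of cartilage, read 7.72, 7.34, 8.04 and 7.67 in old cultured arrays, with no excess in replicates 1 and 2. Col11a1, a fibrillar collagen gene also expressed outside cartilage, read 7.15, 6.50, 5.97 and 5.25 in old cultured arrays, the same order as Dlk1 and Col2a1, against 7.37, 7.37, 5.90 and 6.05 in young cultured arrays.

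**Figure D5:**
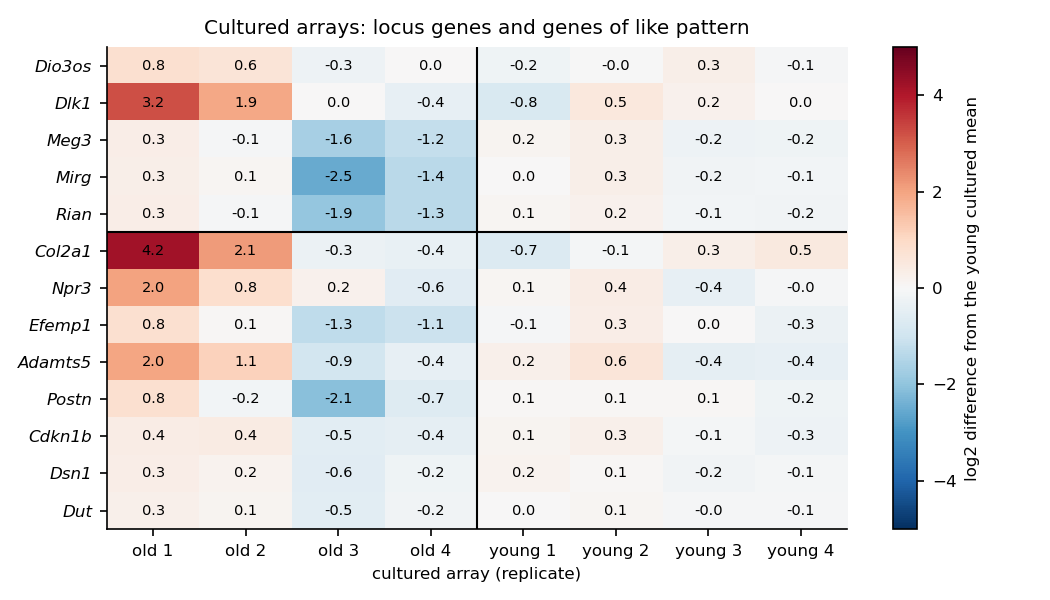
Log2 difference from the young cultured mean of each gene in the 8 cultured arrays, old replicates left and young replicates right, for the 5 locus genes (upper rows) and 8 genes of like pattern (lower rows). Red is higher and blue lower. Old cultured replicates 1 and 2 are high for Dlk1 and Col2a1, and replicates 3 and 4 are low for Meg3, Rian and Mirg.

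Other imprinted genes were counted from a list of 59, of which 40 were tested. With age in vivo 1 was higher and 1 lower. Igf2, the fetal growth factor gene of another imprinted domain, read 9.52, 9.71, 9.74 and 8.60 in old in vivo arrays, against 6.99, 7.26, 6.99 and 7.23 in young in vivo arrays (2.28 ± 0.20, adjusted p = 3.17e-06, limma). Peg3, a paternally expressed zinc finger gene, read 6.36, 5.44, 5.83 and 4.95 in old in vivo arrays, against 7.15, 7.29, 6.99 and 7.27 in young in vivo arrays (-1.53 ± 0.23, adjusted p = 0.00116). The list had a median of -0.02, beside 0.02 over all genes. After culture 14 of the 40 rose and 18 fell in old cells (median -0.22), and 15 rose and 18 fell in young cells (median -0.21), where the medians over all genes were -0.09 and -0.12. Over all tested genes 30.2% were called higher and 32.5% lower in old cells, and 32.6% and 38.6% in young cells. The genes named by rule for the largest fitted changes in the same direction at both ages were Slc38a4, an amino acid transporter gene (4.20 ± 0.73 in old and 5.0 ± 0.73 in young cells), Igf2 (-4.22 and -1.66), Cdkn1c, a cell cycle inhibitor gene (-3.17 and -2.85), and Peg3 (-1.82 and -2.80). Slc38a4 averaged 3.92 in old and 4.14 in young in vivo cells, under the 4.34 of the control probe sets. In culture it averaged 8.12 and 9.14, so the size of its rise is at best a lower bound. Peg3 averaged 3.82 in old cultured cells, under 4.34, and 4.38 in young cultured cells, close to it. The size of its fall is therefore open to background. For Igf2 the change of the age difference with culture was -2.56 ± 0.28 (adjusted p = 1.24e-04, limma), the only call of that contrast among the 99 list genes tested.

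Notch receptors, ligands and Dlk1 partners numbered 24 tested of 28. With age in vivo 1 was higher, Notch2 (0.36 ± 0.10, adjusted p = 0.0325, limma), a call lost in 8 of 23 alternatives. After culture 8 rose and 9 fell in old cells, and 9 rose and 11 fell in young cells, with medians of -0.07 and -0.16, beside -0.09 and -0.12 over all genes and shares of all genes of 30.2% higher and 32.5% lower in old and 32.6% and 38.6% in young cells. Jag1, a Notch ligand, rose by 1.85 in old and 1.93 in young cells, and Nrarp, a feedback inhibitor of Notch signalling, fell (-1.74 in old and -1.53 in young cells), to 4.11 to 4.21 in old cultured arrays, under the control limit of 4.34, so that its size is open to background. Sox9 rose by 2.92 in old and 2.24 in young cells, and the coactivator gene Maml1 by 1.24 and 1.44.

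Genes of imprint maintenance and DNA methylation numbered 19 tested of 22. With age in vivo 1 was higher, Setdb1, a histone H3 lysine methyltransferase gene (0.43 ± 0.11, adjusted p = 0.0294, limma), a call lost in 9 of 23 alternatives. After culture 8 rose and 4 fell in old cells, and 8 rose and 5 fell in young cells, with medians of 0.10 and 0.08, beside the same all-gene medians and shares. Dnmt1, the maintenance DNA methyltransferase, rose by 2.01 in old and 2.71 in young cells, Uhrf1, its partner, by 1.88 and 2.04, and Ezh2, the catalytic subunit of Polycomb repressive complex, by 2.82 and 2.97, while Aff3 fell (-2.94 and -3.29). Of the neighbours of the locus 11 of 16 rose and 3 fell in old cells, and 8 rose and 4 fell in young cells (medians 0.34 and 0.39, beside -0.09 and -0.12 over all genes, of which 30.2% rose and 32.5% fell in old and 32.6% rose and 38.6% fell in young cells). Among them Wars rose by 1.15 in old and 1.55 in young cells, Cinp by 1.05 and 1.19 and Wdr20 by 0.97 and 1.07, and Yy1, a transcription factor gene, fell (-0.90 and -1.03). In the age comparison in culture 0 of the 99 genes of these lists passed, as for all genes, with values such as -0.56 ± 0.23 for Peg3.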

How the data were processed

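The authors deposited log2 intensities for 45141 probe sets on 16 arrays; RMA and affy are named, without versions, in the submitters' processing notes. The log base was taken from the value range, and joint normalization of all arrays is not stated. RMA narrows differences of dim genes and makes every value relative to the other genes of an array. Per the labels' protocols, RNA of 5000 cells was amplified over 23 cycles.

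Genes came from the 28898 probe sets with 1 symbol (551 had several, 15692 were not listed). Of these, 28689 matched RefSeq (GRCm38.p6) by gene ID. Each gene took its brightest probe set, and 14819 genes had at least 4 arrays above 3.87, the 25th percentile. Group means were fitted with limma 3.58.1 (R 4.3.3) over all 16 arrays without a block, with two-sided p-values adjusted by Benjamini-Hochberg at 0.05. The steps were tested on simulated data. Named genes were, beside the 5 locus genes, list genes called in an age contrast or the interaction (at most 6 per list), the 4 list genes with the largest change in both culture contrasts, and for 4 locus genes the 3 closest genes by each measure of likeness. The members, lists and rules were chosen with earlier results of these data known. The labels name 4 mice per age but not which sample came from which.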

Additional observations from a re-analysis of the deposited data

Results flagged for a closer look

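Among 68 sets of 4 arrays (17 probe sets in 4 groups), 3 held an array that stood apart from the other 3 by more than Dixon's critical value at the 95% level, and chance gives about 1 in 20. For Dio3os in young in vivo cells the gap was 0.847 of the range, with replicate 2 at 5.25 and the others at 4.66 to 4.75. For Dlk1 in old in vivo cells it was 0.875, with replicate 1 at 4.20 and the others at 4.48 to 4.52. For the Meg3 probe set 1428764_PM_at in young cultured cells it was 0.889, with replicate 1 at 5.13 and the others at 5.37 to 5.40. The age difference of Igf2 changed with culture by -2.56 on the log2 scale, by the interaction term of the limma fit, with the level higher in old cells in vivo and overlapping between the ages in culture.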

How the results depend on the processing

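With the mean over all probe sets of a gene, the age difference in vivo was -2.03 for Meg3 and -2.95 for Rian, and the change with culture in young cells was -1.82 for Meg3 and -0.98 for Rian. That change was -0.92 for Meg3, -1.59 for Rian and -0.27 for Mirg after scaling to the 75th percentile, which moved the median of all genes to -0.35 in young and -0.25 in old cells, and -1.03 for Meg3 and -1.71 for Rian after cyclic loess. The number of list genes called with age in vivo was 5, and 3 with the 8 in vivo arrays alone. It ran from 2 (without old in vivo replicate 4) to 9 (without old in vivo replicate 1) when 1 array was left out. For the interaction it was 1, 2 with the mean over probe sets, and 1 to 3 when 1 array was left out (3 without old in vivo replicate 1). The fit with 8 arrays was not run for the interaction, which needs all 4 groups. Igf2 and Peg3 kept their calls with age in vivo in all 23 alternatives. Over all genes, 131 were called higher and 65 lower with age in vivo when the 8 in vivo arrays were fitted alone, against 665 and 235, and 53 and 42 in the interaction after scaling to the 75th percentile, against 29 and 58. No paired analysis was possible because replicate numbers were given in accession order and no label ties samples to one mouse or collection day. The arrays number 4 per group, which limits the precision, and Dlk1 and Dio3os in vivo lie near the control probe sets.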
